A study of Mus musculus with 6 samples.

Results

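The 9 genes described here encode feedback inhibitors of the RAS to ERK pathway: the dual-specificity phosphatases Dusp1, Dusp2, Dusp4, Dusp5 and Dusp6, the Sprouty genes Spry1 and Spry2, and the Spred genes Spred1 and Spred2. They were chosen by symbol, and all 9 were found among the 24062 symbols of the count table and among the 15742 genes tested. The libraries measure messenger RNA of Kit-positive bone marrow cells of C57BL/6 mice, sorted for a receptor that marks blood stem cells and progenitors, with 1 mouse per library. The 3 Ints11 KO mice (KO_339, KO_340, KO_345) carried the Mx1-Cre transgene and flox alleles of Ints11, and the 3 WT mice (WT_341, WT_343, WT_344) were their littermates. Cells of all 6 mice were collected 4 days after injection of poly(I:C), an RNA mimic that induces interferon and through it Mx1-Cre, so the WT libraries share that exposure. Mx1-Cre acts in all interferon-responsive cells, not in progenitors alone, and the labels do not say whether the WT littermates carried it. INTS11 is the endonuclease subunit of Integrator, a complex that cleaves small nuclear RNA precursors and ends transcription near promoters. The comparison asks how the feedback genes differ between progenitors of the 2 genotypes. The labels give no ages.

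Growth factor receptors such as KIT activate RAS, which acts through the kinases RAF and MEK on ERK, and active ERK drives growth, division and early response genes. Transcripts of the feedback inhibitors are themselves induced by the pathway, so that their proteins damp the signal that raised them. DUSP phosphatases remove phosphate from ERK, and some also from the related kinases JNK and p38. Sprouty proteins interfere with signalling from receptors to RAF, and Spred proteins recruit the RAS inhibitor neurofibromin to the membrane. In blood progenitors the pathway lies downstream of KIT, FLT3, the thrombopoietin receptor and the colony-stimulating factor receptors.

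The libraries held 124074531 to 166860739 counts. Ints11, listed as Cpsf3l, was at 73.8, 92.3 and 78.9 CPM (counts relative to the scaled library total) in WT_341, WT_343 and WT_344 and at 64.3, 58.3 and 60.2 CPM in KO_339, KO_340 and KO_345. Its log2 change of -0.42 ± 0.10 (SE) passed edgeR's test with Benjamini-Hochberg adjustment (adjusted p = 0.0174), a call that was lost without KO_340, without KO_345 and with the neutrophil or early gene covariate described below. Reads over exons that were not deleted also count, so this level checks the labels only in part. WT_341 lay apart from WT_343 and WT_344 on the second principal component (59.9 against -29.6 and -16.5). By Xist and Y-linked counts, the male libraries were WT_341, KO_339 and KO_340, and the other 3 were female. Kit was at 211 ± 11.5 CPM in WT and 228 ± 9.28 CPM in KO libraries (SD, n = 3 each; adjusted p = 0.269, same test). The series description calls the cells lineage-negative, and the stage of the cells that carried neutrophil markers was not tested. The 11 neutrophil markers summed to 11423 to 36229 CPM in WT and 43737 to 57430 CPM in KO libraries. Of these markers 4 were called higher. That count was 0 without WT_344, KO_339, KO_340 or KO_345 and with no filter on low counts, and 11 without WT_341 and in limma-voom with sample quality weights.

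Promoter windows from RefSeq (GRCm38.p6, 250 bases before to 50 after the annotated start) were matched for 8 of the 9 genes; Dusp4 was not matched. Shown are those of the 3 genes that rose, Dusp6, Dusp5 and Spry1, and that of Dusp1, the most abundant member, for comparison. Capitals mark every match, on either strand, to a cAMP response element (TGACGTCA), to its core alone (TGACG), to an AP-1 motif (TGANTCA), to an E box (CACGTG), to the core of ETS factor motifs (GGAAG), to a TATA box (TATAAA) and to the CArG box of serum response factor. The core of the cAMP response element lies within the full motif. The windows are chr10:99262981-99263280 (forward strand) for Dusp6, chr19:53528895-53529194 (forward) for Dusp5, chr3:37639697-37639996 (forward) for Spry1 and chr17:26508423-26508722 (reverse) for Dusp1.
Dusp6: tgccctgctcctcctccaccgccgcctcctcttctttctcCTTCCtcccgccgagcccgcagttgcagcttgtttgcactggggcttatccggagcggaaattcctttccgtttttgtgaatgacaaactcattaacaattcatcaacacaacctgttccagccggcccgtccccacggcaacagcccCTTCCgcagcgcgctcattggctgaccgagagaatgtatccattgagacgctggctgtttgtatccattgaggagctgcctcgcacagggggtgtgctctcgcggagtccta
Dusp5: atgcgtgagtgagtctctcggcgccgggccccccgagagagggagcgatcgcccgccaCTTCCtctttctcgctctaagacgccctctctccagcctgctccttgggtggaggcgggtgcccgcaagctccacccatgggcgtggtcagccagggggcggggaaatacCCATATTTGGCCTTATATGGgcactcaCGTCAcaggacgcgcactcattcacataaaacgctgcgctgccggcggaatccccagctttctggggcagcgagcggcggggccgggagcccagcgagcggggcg
Spry1: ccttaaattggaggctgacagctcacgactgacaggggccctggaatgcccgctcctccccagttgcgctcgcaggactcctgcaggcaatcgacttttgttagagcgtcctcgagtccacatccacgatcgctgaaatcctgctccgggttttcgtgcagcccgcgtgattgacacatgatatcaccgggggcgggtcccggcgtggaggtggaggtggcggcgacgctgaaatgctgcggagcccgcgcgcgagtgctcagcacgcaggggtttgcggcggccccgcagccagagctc
Dusp1: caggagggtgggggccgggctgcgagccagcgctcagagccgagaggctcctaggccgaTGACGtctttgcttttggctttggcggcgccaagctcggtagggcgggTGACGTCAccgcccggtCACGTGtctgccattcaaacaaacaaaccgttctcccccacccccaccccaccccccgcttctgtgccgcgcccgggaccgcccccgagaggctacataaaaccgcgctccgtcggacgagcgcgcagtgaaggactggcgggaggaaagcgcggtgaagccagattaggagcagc

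The promoters of the 3 genes that rose had no searched motif in common. The Dusp5 window held 2 CArG boxes that lie end to end, CCATATTTGG beginning 82 bases and CCTTATATGG beginning 72 bases before the start. A CArG box was found in 1.63% of the 32851 RefSeq windows of the same length, and at least 2 matches in 6 of them. Dusp1 held 1 full cAMP response element, 143 bases before the start, a motif present in 1.79% of windows, and an E box (7.15%), which the Dusp2 window held as well. The ETS core, present in 71.4% of windows, occurred 2 times each in Dusp6, Dusp2 and Spred1, 1 time each in Dusp5 and Spry2 and 5 times in Spred2. The Spry1 window held none of the searched motifs. The core of the cAMP response element was present in 20.8% of windows, the AP-1 motif in 7.81% and the TATA box in 13.6%. These are matches of letters, and no binding was measured.

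In Ints11 KO libraries 3 of the 9 genes were called higher, Dusp5, Dusp6 and Spry1, and 0 were called lower. A gene was called at an adjusted p under 0.05 (edgeR, as described with the processing, adjusted over all tested genes), and by this rule 16.0% of all tested genes were higher and 19.9% lower, 35.9% together. At an unadjusted p under 0.05 the same test gave 4 higher and 0 lower, and DESeq2 gave 3 higher and 0 lower after adjustment. All 3 KO libraries lay above all 3 WT libraries for the same 3 members and for 25.6% of all tested genes, while groups that did not overlap, in either direction, made up 53.9% of all tested genes. The fitted log2 change was above 0 for all 9 members with the main settings, against 51.0% of all tested genes, and its median was 0.43, against 0.01. The 9 genes are targets of the same pathway in the same libraries, so their signs are not independent of each other. Dusp1, Dusp2, Spry2 and Spred1 had values on both sides of 0 over the alternatives described below. In bulk cells, more cells of a type that expresses a gene and more of its RNA per cell cannot be told apart.

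**Figure D1:**
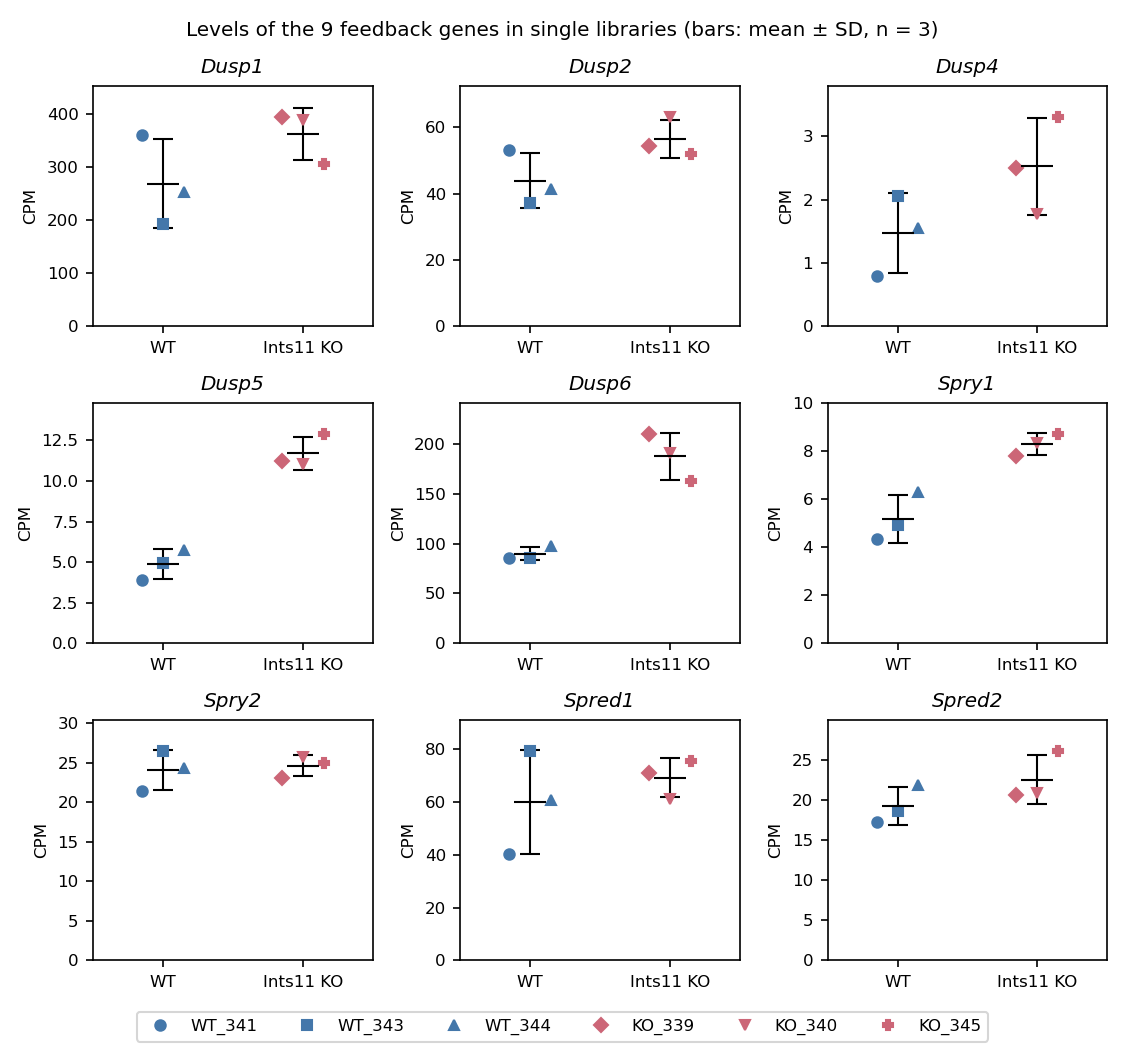
CPM (y axis, from 0) of each of the 9 genes in 3 WT and 3 Ints11 KO libraries; symbols are single libraries, bars the mean ± SD of 3. The groups are apart for Dusp5, Dusp6 and Spry1 and overlap for the other 6 genes.

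Dusp6 encodes MKP-3, a cytoplasmic phosphatase that is selective for ERK. Its level was 85.9, 86.0 and 97.6 CPM in WT_341, WT_343 and WT_344 and 209, 190.1 and 162 CPM in KO_339, KO_340 and KO_345. The lowest KO library lay well above the highest WT library, and KO_345 was the lowest of the KO libraries. The means were 89.8 ± 6.74 CPM in WT and 187 ± 23.5 CPM in KO libraries (SD, n = 3 each). Dusp6 rose 2.09-fold, with a log2 change of 1.06 ± 0.11 (SE) (edgeR adjusted p = 0.00234). The call held whichever library was left out (log2 change 1.01 to 1.18). Males alone differed by 1.22 (1 WT, 2 KO) and females alone by 0.83 (2 WT, 1 KO) on the log2 CPM scale.

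Dusp5 encodes a nuclear phosphatase that is also selective for ERK. It was at 3.93, 4.92 and 5.76 CPM in WT_341, WT_343 and WT_344 and at 11.2, 11.04 and 12.9 CPM in KO_339, KO_340 and KO_345. The groups do not overlap, and the KO libraries lie close together. From 4.87 ± 0.921 to 11.7 ± 1.01 CPM (SD, n = 3 each), Dusp5 rose 2.40-fold, the largest fitted change of the 9 with the main settings (log2 change 1.27 ± 0.17, SE; edgeR adjusted p = 0.00379). Leaving out single libraries kept the call, with log2 changes of 1.12 to 1.40. The log2 CPM difference was 1.501 in males and 1.27 in females. The annotated antisense gene AC137853.2 overlaps Dusp5, and no source used here states how strand was counted, so reads of the pair cannot be told apart.

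Spry1 encodes a Sprouty protein that limits signalling from receptor tyrosine kinases. It was at 4.36, 4.93 and 6.29 CPM in WT_341, WT_343 and WT_344 and at 7.80, 8.36 and 8.71 CPM in KO_339, KO_340 and KO_345. All KO libraries lay above all WT libraries, though KO_339 lay closer to WT_344 than WT_344 did to WT_341. The means were 5.20 ± 0.993 and 8.29 ± 0.457 CPM (SD, n = 3 each), a 1.59-fold rise (log2 change 0.67 ± 0.17, SE; edgeR adjusted p = 0.0201). This call was lost without KO_339, KO_340, KO_345 or WT_343, with edgeR adjusted p-values up to 0.0610 and log2 changes of 0.55 to 0.83 over all 6 libraries left out. The fits that lost it also called fewer of all tested genes, 2302 to 4144 against 5659. Without KO_339 the log2 change of Spry1 was 0.75. Within males the log2 CPM difference was 0.89 and within females 0.64. A gene model on the opposite strand, Gm42922, overlaps Spry1.

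Spry2, the other Sprouty gene of the set, showed the smallest fitted change. It was at 21.5, 26.4 and 24.3 CPM in WT_341, WT_343 and WT_344 and at 23.1, 25.8 and 25.03 CPM in KO_339, KO_340 and KO_345. The ranges of the genotypes lie across each other. The log2 change was 0.03, with a 95% interval of -0.22 to 0.28, and its sign turned without WT_341 (-0.055) and in limma-voom with sample quality weights (-0.0055).

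Dusp1 encodes MKP-1, a nuclear phosphatase of p38, JNK and ERK that is induced within minutes of many stimuli. Its level was 361, 194 and 254 CPM in WT_341, WT_343 and WT_344 and 394, 389 and 306 CPM in KO_339, KO_340 and KO_345. WT_341 lay above KO_345, so the groups overlap. The log2 change of 0.43 ± 0.22 (SE) did not pass (edgeR adjusted p = 0.157), and without WT_341 it was 0.69 and passed (adjusted p = 0.0114, range 0.00831 to 0.466 over 16 alternatives). Dusp1 overlaps Ergic1 on the opposite strand in the annotation, with the same limit on strand as for Dusp5.

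Dusp2 encodes PAC-1, a nuclear phosphatase found mainly in blood cells. It was at 53.1, 37.2 and 41.3 CPM in WT_341, WT_343 and WT_344 and at 54.5, 62.97 and 52.1 CPM in KO_339, KO_340 and KO_345. As for Dusp1, WT_341 was the highest WT library, and for Dusp2 it exceeded KO_345 by a small margin. The log2 change was 0.36 ± 0.14 (SE) (edgeR adjusted p = 0.0837). Without WT_341 it was 0.51 and passed (adjusted p = 0.00553, range 0.00553 to 0.857 over 16 alternatives).

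Dusp4 encodes MKP-2, a nuclear phosphatase close in sequence to MKP-1. It was the lowest member, with 99 to 440 counts per library. Dusp4 was at 0.803, 2.06 and 1.55 CPM in WT_341, WT_343 and WT_344 and at 2.495, 1.775 and 3.30 CPM in KO_339, KO_340 and KO_345. KO_340 lay below WT_343. The log2 change of 0.78 ± 0.38 (SE) did not pass (edgeR adjusted p = 0.140) and passed with sex as a covariate (1.13, adjusted p = 0.0190; range 0.0190 to 0.326 over 16 alternatives).

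Spred1 and Spred2 encode membrane proteins that bring neurofibromin to RAS. Spred1 was at 40.1, 79.1 and 60.6 CPM in WT_341, WT_343 and WT_344 and at 71.04, 61.04 and 75.4 CPM in KO_339, KO_340 and KO_345. WT_341 was the lowest of the 6 libraries and WT_343 the highest, so the KO range lies inside the WT range. Spred1 had a log2 change of 0.21 (95% interval -0.32 to 0.73), which was -0.025 without WT_341 and 0.45 without WT_343. Spred2 was at 17.3, 18.7 and 21.8 CPM in WT_341, WT_343 and WT_344 and at 20.6, 20.8 and 26.0 CPM in KO_339, KO_340 and KO_345. WT_344 lay among the KO libraries, and the log2 change was 0.22 (95% interval -0.09 to 0.54). Neither gene passed the test (edgeR adjusted p = 0.489 for Spred1 and 0.221 for Spred2).

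**Figure D2:**
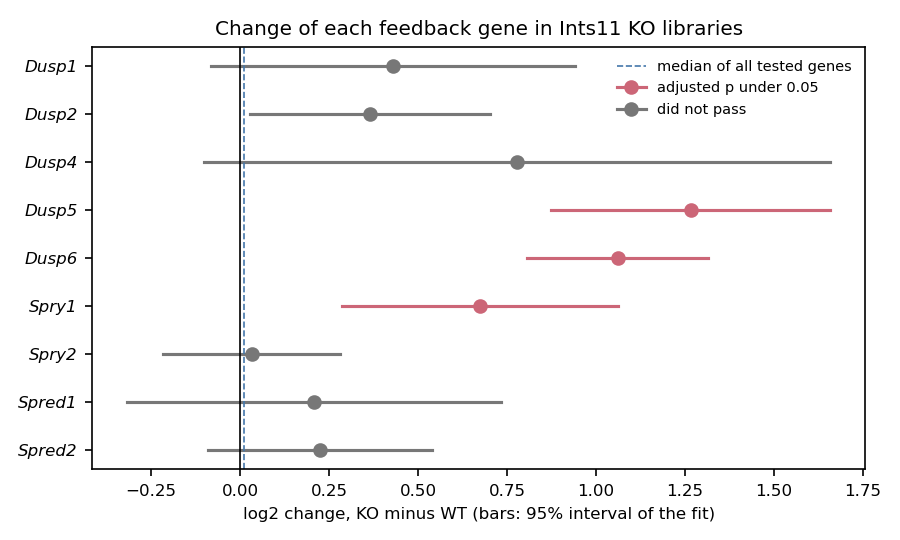
Log2 change (x axis, KO minus WT) of each gene with its 95% interval; red marks an adjusted p under 0.05 and the dashed line the median of all tested genes, 0.01. The intervals of Dusp5, Dusp6 and Spry1 start at 0.87, 0.81 and 0.29.

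Among the 5 phosphatases, Dusp5 and Dusp6 passed with the main settings and Dusp1, Dusp2 and Dusp4 did not. Dusp1 and Dusp2 passed without WT_341 and in limma-voom with sample quality weights, and Dusp4 passed with sex as a covariate. The difference between the changes of these genes was not tested. The spread within WT differed among members. The coefficient of variation over the 3 WT libraries was 7.51% for Dusp6 and 10.4% for Spry2, and 31.4% for Dusp1, 32.6% for Spred1 and 42.9% for Dusp4. WT_341 was the highest WT library for Dusp1 and Dusp2, and the lowest for the other 7 members, although for Dusp6 it lay within 1 CPM of WT_343.

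Levels were compared between genes per kilobase of the merged annotated exons (CPM per kb). The order of mean levels was the same in both genotypes: Dusp1, Dusp6, Dusp2, Spry2, Spred1, Spred2, Dusp5, Spry1 and Dusp4. Dusp1 stood at 81.4 ± 25.6 CPM per kb in WT and 109.7 ± 14.9 CPM per kb in KO libraries (SD, n = 3 each). Dusp4, at the other end, stood at 0.536 ± 0.230 and 0.921 ± 0.278 CPM per kb. The neighbours Spry2 and Spred1 overlapped in both genotypes. Dusp5 overlapped Spry1 in WT, at 1.97 ± 0.372 against 1.79 ± 0.342 CPM per kb. In KO libraries Dusp5 had reached 4.74 ± 0.407 CPM per kb and overlapped Spred2, at 4.87 ± 0.665 CPM per kb, while Spry1 stayed below at 2.85 ± 0.157 CPM per kb. All other neighbours in the order were apart.

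The 9 genes lie on 8 chromosomes, and only Dusp2 and Spred1 share one, chromosome 2 (GENCODE M21, GRCm38). Dusp6 spans positions 99263231 to 99267489 of chromosome 10, Dusp5 53529109 to 53542431 of chromosome 19 and Spry1 37639947 to 37644598 of chromosome 3, all on the forward strand. Their spans of 4259, 13323 and 4652 bp are below the median of 21286 bp over 14941 tested genes with a unique match. Dusp2 (2218 bp), Spry2 (4873 bp) and Dusp4 (12598 bp) are as short and did not pass, while Spred1 (60906 bp) and Spred2 (99652 bp) are long. The annotated span of Dusp1, 56539 bp, includes a distant upstream start. In the longest annotated 3' UTR, the AU-rich pentamer ATTTA, a motif of unstable messages, occurred 4 times in both Dusp1 (5.80 per kb) and Dusp2 (6.88 per kb), densities at the percentiles 96.0 and 97.6 of 13202 tested genes. It occurred 1 time in Dusp5 and in Dusp6 and 2 times in Spry1, with densities of 0.902, 0.840 and 1.91 per kb against a median of 1.29. In the other members that did not pass, densities were 1.80 per kb for Dusp4, 2.34 for Spry2, 2.77 for Spred1 and 1.55 for Spred2.

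The other listed genes of these families moved in the same direction or did not pass. The list does not hold every gene of these families and was chosen with earlier results of these data known. Over all tested genes, 16.0% were called higher and 19.9% lower. Of 10 tested genes (Dusp3, Dusp7, Dusp8, Dusp9, Dusp10, Dusp14, Dusp16, Dusp22, Spry4, Spred3), 3 were called higher and 0 lower, with a median log2 change of 0.49. At an unadjusted p under 0.05, 4 were higher and 0 lower, and DESeq2 called 4 higher and 0 lower after adjustment. Spry4, another Sprouty gene, went from 0.509 ± 0.165 to 1.53 ± 0.430 CPM (SD, n = 3 each; edgeR adjusted p = 0.0136), a call lost without KO_339. Spred3 went from 1.32 ± 0.109 to 2.19 ± 0.192 CPM, and lost its call without any single library but WT_341. Dusp14 passed at only 0.164 ± 0.0797 CPM in KO libraries and lost its call without WT_344, KO_339 or KO_345. Without KO_339 no gene of this list was called, without WT_344 or KO_345 only 1 was, and without WT_341 or with upper-quartile scaling 5 were. Spry3 is listed at 0 in all libraries.

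Upstream, the growth factor receptors moved both ways, 4 of 14 higher and 4 lower (median log2 change 0.01). The count of higher receptors was 0 without KO_339 and with the neutrophil covariate, 1 without KO_345 and 2 without WT_343, WT_344 or KO_340, while 3 to 4 were lower in these fits. Met, the receptor of hepatocyte growth factor, fell from 49.7 ± 2.18 to 14.9 ± 4.47 CPM, and Csf2rb, the shared beta chain of the interleukin 3 and GM-CSF receptors, from 304 ± 3.46 to 221 ± 5.34 CPM. Csf3r, the G-CSF receptor, fell from 311 ± 28.1 to 204 ± 6.39 CPM, and Pdgfrb rose from 9.92 ± 2.43 to 17.7 ± 2.59 CPM, a call lost without WT_344, KO_339 or KO_340 (SD, n = 3 each). Of 16 adaptors and RAS exchange factors, 2 were higher and 3 lower (median -0.00). The balance turned with scaling, to 5 higher and 1 lower (median 0.13) under upper-quartile factors and to 4 and 1 under library totals. It was 4 and 3 without WT_341, 2 and 1 without WT_343, and 1 and 1 without any of the other 4 libraries. Rasgrp3, a RAS exchange factor, rose 3.27-fold to 4.27 ± 0.656 CPM, while its relative Rasgrp2, which acts on RAP1, fell from 187 ± 17.0 to 124 ± 4.41 CPM. Gab2, an adaptor (log2 change -0.26), and Frs3, a docking protein (1.09), also passed. Gab2 lost its call when any library but WT_341 was left out, and Frs3 when any single library was. Calls are edgeR's at an adjusted p of 0.05.

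Of 18 genes from RAS to ERK and its effector kinases, 2 were higher and 4 lower, with a median log2 change of -0.12. The RAF kinase gene Araf fell from 75.7 ± 5.55 to 45.2 ± 0.114 CPM (SD, n = 3 each; edgeR adjusted p = 0.00242), with all 3 KO libraries between 45.0 and 45.2 CPM. Rps6ka3, an ERK-activated kinase, fell from 292 ± 63.5 to 183 ± 11.2 CPM and lost its call without WT_344, KO_339 or KO_345. Rps6ka2 (log2 change -0.26) lost its call without WT_344 or any KO library, and the scaffold gene Ksr1 (0.42) without KO_339 or KO_340. With upper-quartile scaling 2 were higher and 2 lower, with a median of 0.02. The count of lower genes was 7 with DESeq2, 8 in limma-voom with sample quality weights, 9 without WT_341, 2 without KO_340, and 1 without WT_344, KO_339 or KO_345. No gene was called higher without KO_339, and 1 was without WT_343, WT_344, KO_340 or KO_345.

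Among 12 other brakes on RAS, 2 were higher and 3 lower (median -0.03). Upper-quartile scaling turned this balance to 3 higher and 1 lower (median 0.10). There were 1 higher and 2 lower without WT_343, and 1 and 1 without WT_344 or any KO library. Dab2ip, a RAS GTPase-activating protein, rose from 20.1 ± 1.43 to 37.3 ± 4.85 CPM, and Rasa4, another such protein, fell from 32.1 ± 6.33 to 14.4 ± 1.05 CPM (SD, n = 3 each). Pebp1, an inhibitor of RAF, fell by 0.54 on the log2 scale and lost its call without any single library but WT_341. Rasa3 fell by 0.24 and lost it without WT_344 or any KO library. Of 14 genes for JNK, p38 and their activators, 3 were higher and 4 lower (median -0.13, and 0.01 with 3 higher and 1 lower under upper-quartile scaling). Without KO_339 these counts were 0 and 1, without KO_340 2 and 1, without KO_345 1 and 2, and without WT_344 1 and 3. Mapk8, which encodes JNK1, fell from 49.0 ± 5.20 to 34.4 ± 0.248 CPM, and Mapk13, a p38 gene, rose from 32.2 ± 10.6 to 72.2 ± 8.18 CPM, a call lost without KO_339. Mapk9, which encodes JNK2, fell by 0.33 on the log2 scale, a call lost without KO_339 or KO_340. Mapk11, another p38 gene, was at 1.28 ± 0.199 CPM in KO libraries and lost its call without WT_344, KO_339 or KO_345. Calls are edgeR's at an adjusted p of 0.05.

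**Figure D3:**
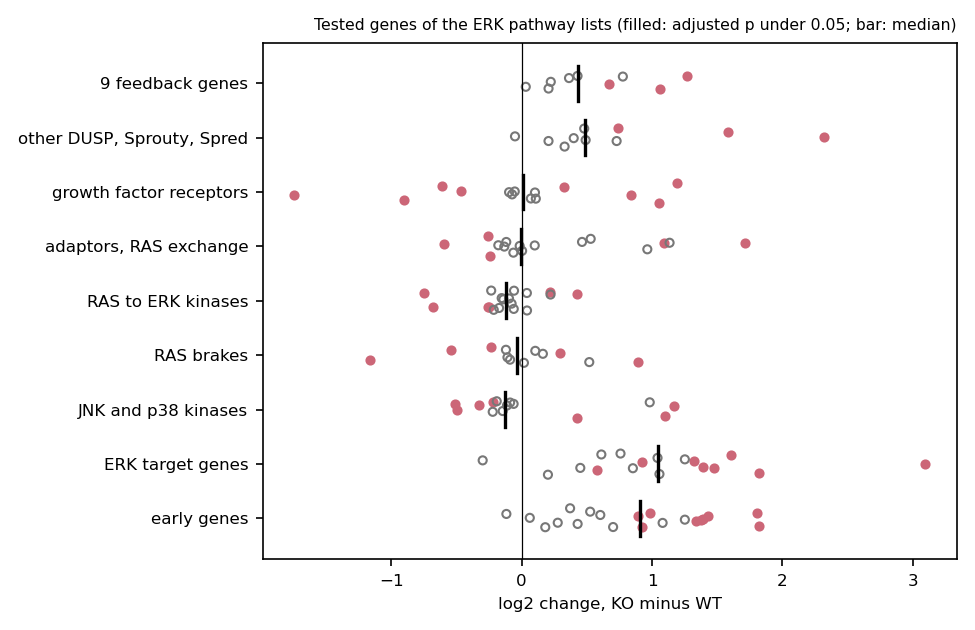
Log2 change (x axis, KO minus WT) of the tested genes of each list; filled points passed an adjusted p of 0.05, open points did not, and bars are list medians. The medians were 0.43 for the feedback genes, 0.49 for the other listed family members, 1.04 for ERK targets and 0.91 for early genes. Those of the receptors and kinases lie to the left, between -0.13 and 0.01. Members and lists were chosen with earlier results of these data known.

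Of 17 tested target genes of ERK other than the members, 8 were higher and 0 lower, with a median log2 change of 1.04. At an unadjusted p under 0.05, 13 were higher and 1 lower, and DESeq2 called 11 higher and 0 lower after adjustment. Epha2, an ephrin receptor gene, rose 8.56-fold from 1.92 ± 0.362 to 16.4 ± 2.49 CPM, and Ier3, an early response gene, rose from 24.2 ± 3.12 to 46.0 ± 1.98 CPM (SD, n = 3 each). The transcription factor genes Egr3 and Egr2 rose 3.52-fold and 2.62-fold. Of 20 early genes, which respond both to growth signals and to the handling of cells, 9 were higher and 0 lower, with a median of 0.91. At an unadjusted p under 0.05, 11 were higher and 0 lower, and DESeq2 called 10 higher and 0 lower after adjustment. Besides Ier3 and Egr3, Ier5 rose 2.53-fold to 114.6 ± 17.0 CPM and Junb, a gene of AP-1, rose 2.70-fold to 176 ± 34.4 CPM. With single libraries left out, 6 to 10 ERK targets and 6 to 11 early genes were called higher, and 1 ERK target was lower without WT_341. With the neutrophil marker covariate described below, 2 ERK targets (median 0.84) and 2 early genes (median 0.17) were called higher, and Egr2, Egr3 and Junb lost their calls. With the early gene mean as a covariate, also described below, 0 genes of either list were called. The lists share Egr1, Egr2, Egr3 and Ier3, and members of both are targets of the same pathway, so they are not independent of each other. Both lists were chosen with earlier results of these data known, which can shape these counts. Over all tested genes, 16.0% were called higher and 19.9% lower. Calls are edgeR's at an adjusted p of 0.05.

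The mean level of the 20 early genes moved with genotype, at 5.69, 4.97 and 5.58 log2 CPM in WT_341, WT_343 and WT_344 and 6.35, 6.49 and 6.19 log2 CPM in KO_339, KO_340 and KO_345. The lowest library by this mean, WT_343, was also the lowest for Dusp1 and Dusp2. WT_341, with the highest early gene mean of the WT libraries (5.69), had their lowest level of Dusp5 (3.93 CPM). Dusp6 was about level in WT_341 (85.9 CPM) and WT_343 (86.0 CPM), the WT libraries with the highest and lowest early gene means. WT_341 was also the only male WT library. Among KO libraries, KO_345 had the lowest early gene mean (6.19) and the lowest Dusp1 (306 CPM), Dusp2 (52.1 CPM) and Dusp6 (162 CPM). Dusp5 was highest there (12.9 CPM). With the early gene mean as a covariate, Dusp1 had a log2 change of -0.54 and Dusp2 of -0.20, Dusp5 of 1.47 and Dusp6 of 0.88, and no member passed. That fit called only 8 of all tested genes, and its median SE was 0.285, against 0.149 without the covariate. Whether the time or handling during sorting contributed to the levels of any member or of the early genes was not tested.

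**Figure D4:**
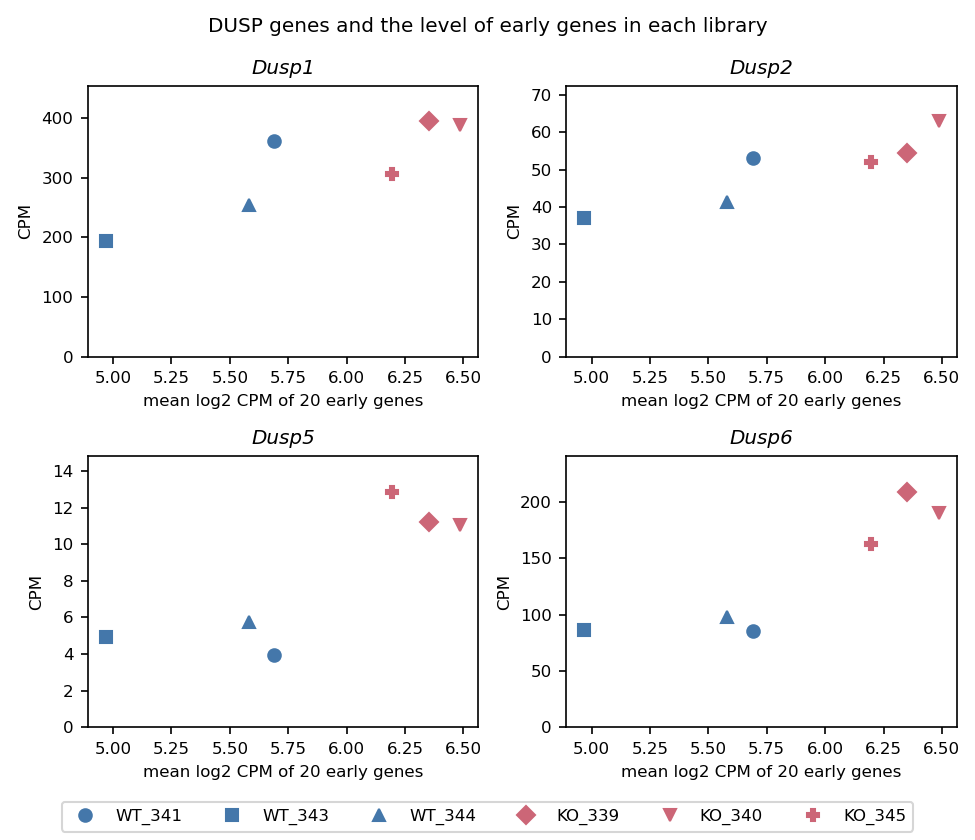
CPM of Dusp1, Dusp2, Dusp5 and Dusp6 (y axes, from 0) against the mean log2 CPM of 20 early genes (x axis) in each library. Every KO library has a mean of at least 6.19 and every WT library of at most 5.69, and WT_343 is lowest for Dusp1 and Dusp2.

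Cell type markers also moved with genotype. The mean of the 11 neutrophil markers was 10.1, 8.44 and 9.36 log2 CPM in WT_341, WT_343 and WT_344 and 10.4 to 10.8 log2 CPM in KO libraries. With this mean as a covariate Dusp5 (log2 change 1.49) and Dusp6 (1.003) still passed, Spred1 passed (0.91, edgeR adjusted p = 0.0383), Spry1 did not (0.80, adjusted p = 0.104, same test), and Dusp1 had a log2 change of -0.17. The covariate called 1255 of all tested genes and overlaps with genotype. Stem cell markers were higher in 7 of 10 cases (summed 89.2 to 93.4 CPM in WT and 117 to 157 CPM in KO libraries), and in 4 without KO_339. Of mast cell and basophil markers 7 of 8 were higher (346 to 436 against 684 to 813 CPM), and 3 without WT_344 or KO_339. Of megakaryocyte markers 4 of 8 were higher (38.2 to 60.4 against 95.01 to 141 CPM), 7 without KO_340 and 3 without WT_343, WT_344, KO_339 or KO_345. Markers of granulocyte-macrophage progenitors were lower in 5 of 7 cases and higher in 1 (16894 to 22308 against 8853 to 10754 CPM), with 2 higher without WT_341. Without WT_344, KO_339 or KO_345, 4 were lower. Monocyte markers were lower in 6 of 8 cases (1682 to 1909 against 1037 to 1080.5 CPM), in 4 without KO_339 or KO_340 and in 5 without WT_343, WT_344 or KO_345. Of erythroid markers 1 of 10 was lower (454 to 757 against 414 to 511 CPM). Without WT_341, 4 were higher and 1 lower, and without KO_339 none was called. Of T and NK cell markers 3 of 8 were higher and 1 lower, with a median log2 change of 1.16, and 1 was higher without WT_344, KO_339 or KO_345. Their sum (273 to 301 against 208 to 231 CPM) is mostly Nkg7, a cytotoxic granule gene, which fell from 276 ± 15.7 to 197 ± 17.4 CPM (SD, n = 3 each), while the other 7 had log2 changes above 0. Of stromal markers 2 of 8 were higher (84.3 to 102 against 97.4 to 179 CPM), 3 without KO_340 and 1 without any other library. Of lymphoid markers 0 of 9 were called by edgeR or DESeq2, and 0 at an unadjusted p under 0.05 (33.1 to 184 against 116 to 133 CPM), but 6 were called higher without WT_341 (median log2 change 2.04) and 8 in limma-voom with sample quality weights. No marker in the table was at 0 in all libraries. The part of these cell types in the levels of the feedback genes was not tested.

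For each of the 3 called members, the genes with the most similar pattern were taken from 9807 genes with a mean of at least 5 CPM, by Pearson's r of log2 CPM over the same 6 libraries, which also carry the genotype difference. For Dusp6 these were Tle4 (r = 0.996), which encodes a transcriptional corepressor, and Tbc1d1 (r = 0.994), for Dusp5 Smad3 (r = 0.999), a mediator of TGF-beta signalling, and Zfp653 (r = 0.997), and for Spry1 Lpcat4 (r = 0.994) and Rybp (r = 0.993), a Polycomb protein gene. Their fitted log2 changes, 0.14 to 0.46, were below those of the members they resemble, and Tle4 and Rybp did not pass (edgeR adjusted p = 0.110 and 0.0614). Smad3 went from 62.0 ± 2.45 to 73.9 ± 1.21 CPM, and Tle4 was at 72.04 ± 0.592 CPM in WT and 79.5 ± 1.44 CPM in KO libraries (SD, n = 3 each). Because these genes were picked for the highest r among 9807 over only 6 libraries, their r cannot show shared regulation, which was not tested.

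**Figure D5:**
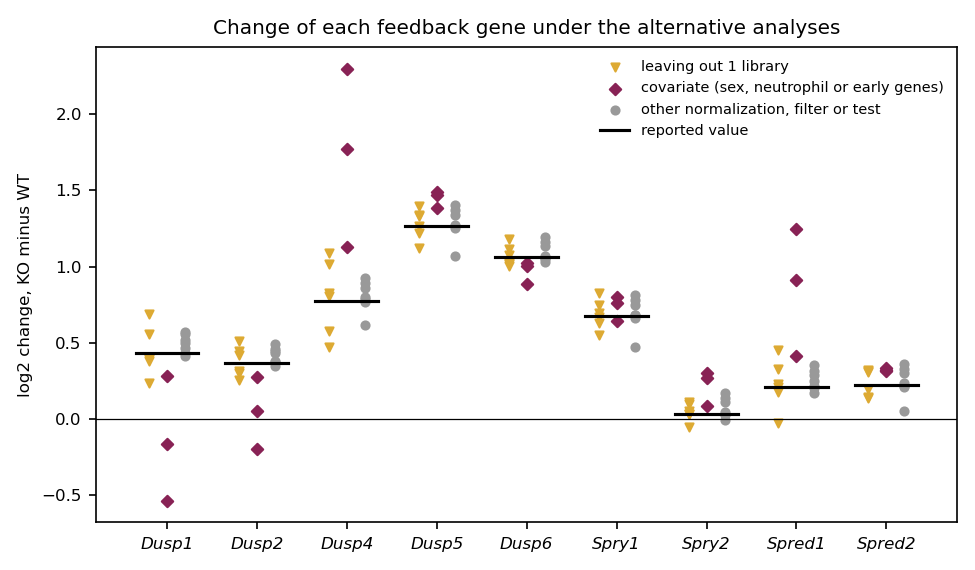
Log2 change (y axis, KO minus WT) of each gene under 16 alternative analyses, by kind of alternative, with the reported value as a black line. All values of Dusp5 lie between 1.07 and 1.49 and all of Dusp6 between 0.88 and 1.20, while Dusp1, Dusp2, Spry2 and Spred1 have values on both sides of 0.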

How the data were processed

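The authors deposited raw read counts, not normalized, for each gene symbol and library. Per the submitters' processing notes, FastQC, Trimmomatic, STAR, HTSeq and the build mm10 were used (versions not listed). Per the labels' protocols, a strand-specific mRNA kit and paired reads of 75 bp were used. Annotation release, strand setting and handling of reads with several positions are not stated. No column belonged to other samples.

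Groups came from the sample titles, and each library is an individual mouse. The test was edgeR 4.0.16 (R 4.3.3): filterByExpr (minimum count 10, minimum total 15), TMM factors, robust glmQLFit, then glmQLFTest on genotype. The 15742 genes left were adjusted together by Benjamini-Hochberg at a threshold of 0.05. CPM are TMM-scaled, log2 CPM used a prior count of 2, and the standard error is the size of the log2 change divided by the square root of the test's F. Alternatives used limma 3.58.1, DESeq2 1.42.0, other factors and filters, covariates, and each library left out. The test was tried on simulated counts for KO against WT (15596 genes), where sets of 50 genes were altered by a known fold: the calls found 45 at a fold of 4, 21 at 2, 13 at 1.5 and only 1 at 1.25. No other gene was altered there, whereas 35.9% of all tested genes were called in the data. The adjustment is stricter where fewer genes change, so these counts do not give the share found in the data.

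Members and lists were chosen with earlier results of these data known. Named genes are all members, up to 4 tested genes of each pathway list with the smallest adjusted p, and for each called member the 2 genes with the highest r, without unnamed gene models and sex-linked genes. Lists cover some other DUSP, Sprouty and Spred genes, receptors, adaptors, RAS to ERK kinases and RAS brakes. They also cover JNK and p38 kinases, ERK targets, early genes and the markers of the cell types named. Exon lengths, spans and 3' UTRs came from GENCODE M21 (GRCm38, which mm10 names).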

Additional observations from a re-analysis of the deposited data

How the results depend on the processing

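Of the 9 genes, 3 were called higher with the main settings, 0 with the early gene covariate, 5 with limma-voom with sample quality weights and 2 to 5 when single libraries were left out (5 without WT_341: Dusp1, Dusp2, Dusp5, Dusp6 and Spry1). No alternative called a member lower. All genes called numbered 5659, and 8 with the early gene covariate, 1255 with the neutrophil covariate and 2302 to 7879 when single libraries were left out. Among the fits that left out a library, only the one without WT_341 called more than 5659. With fewer libraries, a call can be lost without a smaller change. Both covariates differ between the genotypes, so they can take up a genotype effect. Dusp1 turned to -0.54 with the early gene and -0.17 with the neutrophil covariate, Dusp2 to -0.20 with the early gene covariate, Spred1 to -0.025 without WT_341 (range -0.025 to 0.45 without single libraries), and Spry2 to -0.055 without WT_341 (range -0.055 to 0.11) and -0.0055 with limma-voom with sample quality weights. The causes were not tested. Dusp5 and Dusp6 lost their calls in 1 of 16 alternatives, the early gene covariate. Of all calls, 44.5% were higher in KO libraries under TMM scaling, where the median tested gene had a log2 change of 0.01. Upper-quartile scaling gave 64.2% and a median of 0.15, and library totals alone 58.8% and a median of 0.11. No paired analysis was possible because the genotypes share no replicate numbers. Counts were lowest for Dusp4, at 99 to 440 per library, and counting error was not estimated.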
